A study of Mus musculus with 6 samples.

Results

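The circadian clock genes Per1, Per2, Per3, Cry1, Cry2, Arntl, Clock, Nr1d1, Nr1d2 and Dbp were taken by symbol from the 6 per-library count tables. All 10 were present among 22007 gene symbols, and all 10 passed the filter on low counts. The tables measured RNA of corneas from male C57BL/6J mice. In the OFBI group (open-field blast injury), mice that were awake had been exposed once, 3 m from an open-field charge of 350 g C-4 (a plastic explosive), and corneas were taken 12 months later. The Naive group carried the same 12-month label and no blast. Each group had 3 libraries, each from a pool of corneas, whose size the labels do not state. The labels also give no time of day at collection and no lighting schedule.

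In mammals the circadian clock is a feedback loop of transcription. CLOCK and ARNTL (also called BMAL1) bind E-box sequences and switch on the Per, Cry, Nr1d and Dbp genes. PER and CRY proteins then block CLOCK and ARNTL, and the nuclear receptors NR1D1 and NR1D2 repress Arntl through RORE sequences. In peripheral tissues of the mouse, Arntl therefore peaks at the opposite part of the day to Nr1d1 and Dbp, with the Per genes following these. The corneal epithelium carries such a clock and is known for a daily rhythm of cell division. With a change in the time of day, Arntl thus mostly moves against Nr1d1 and Dbp, while the Per genes lag behind these.

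The OFBI libraries held 1173472 to 3410476 estimated counts and the Naive libraries 41971752 to 47809779, a Naive mean 16.7 times that of OFBI. OFBI replicate 3 was the shallowest, with counts above 0 for 47.0% of genes, against 56.2% and 57.4% in the other OFBI libraries and 72.3% to 72.8% in Naive libraries. Depth and group cannot be told apart. Krt12, Krt5 and Aldh3a1, genes of corneal epithelium, were abundant in all libraries, but Krt12 and Krt5 moved with the group. Aldh3a1 was higher in all OFBI libraries without being called (log2 fold change 0.36, SE 0.13, adjusted p = 0.100 in edgeR). Krt12 had 22859.8 to 28769 CPM (counts per 1e6 counts of the library, TMM-scaled) in OFBI and 8869 to 11102 CPM in Naive libraries (log2 fold change 1.35, SE 0.15, adjusted p = 0.00666 in edgeR). Krt5 had 18981 to 34042 CPM in OFBI and 6809 to 8883 CPM in Naive libraries (log2 fold change 1.76, SE 0.23, adjusted p = 0.00964 in edgeR). A list of 8 corneal genes summed to 54372 to 73391 CPM in OFBI and 25312 to 25999 CPM in Naive libraries, with 0 or 1 of the 8 at 0 in a library. Of this list 3 were called higher, against 8.41% of all tested genes. The part of this list in the values below was not tested. The stromal keratocyte genes were low: Kera was at 0 in OFBI replicates 1 and 3, with at most 12.9 CPM in any library, and Lum had at most 18.3 CPM. Their log2 fold changes were negative, -2.15 (SE 1.17) for Kera and -0.77 (SE 0.54) for Lum, and neither was called. Transcripts of some other tissues moved with the group. A list of 5 red cell genes was lower, with 13.1 to 27.5 CPM in OFBI and 61.2 to 76.3 CPM in Naive libraries. The summed levels of 10 skeletal muscle genes and of 10 neuron genes overlapped between the groups. The neuron list summed to 37.7, 28.8 and 137 CPM in OFBI replicates 1, 2 and 3 and 29.7 to 33.4 CPM in Naive libraries. Of its genes, 5 or 6 were at 0 in OFBI and 0 or 1 in Naive libraries. Of the 8 neuron genes tested, 2 were called lower, against 10.4% of all tested genes, with a median log2 fold change of -1.52. Of the skeletal muscle genes, 2 were called higher and 1 lower. A list of 22 hepatocyte genes summed to 267, 295 and 1361 CPM in OFBI replicates 1, 2 and 3, against 81.0 to 91.6 CPM in Naive libraries. Of the 22, 7, 8 and 1 were at 0 in OFBI replicates 1, 2 and 3 and 3 to 8 in the Naive libraries, and 8 of the 11 tested were called higher. Alb, the serum albumin gene, had 60.9, 102 and 644 CPM in OFBI libraries and 0.604 to 4.14 CPM in Naive libraries. A list of 11 lymphocyte genes summed to 33.6 to 233 CPM in OFBI and 6.16 to 8.28 CPM in Naive libraries, and a list of 11 cardiomyocyte genes to 33.9 to 240.4 CPM in OFBI and 23.9 to 29.8 CPM in Naive libraries. Of the lymphocyte list, 3 or 4 genes were at 0 in OFBI libraries and 2 in each Naive library, and of the cardiomyocyte list 0 to 4 in OFBI and 0 to 2 in Naive libraries. Liver, heart and lymphocytes have clocks of their own, and the part of these transcripts in the values below was not tested. In pooled tissue, fewer cells of a type and less RNA per cell cannot be told apart.

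Across the clock, Nr1d1 and Per3 were lower in the OFBI group and no member was called higher. Dbp and Cry1 had nearly equal group means, and Arntl was somewhat higher in all OFBI libraries without passing the test. With edgeR's quasi-likelihood test and Benjamini-Hochberg adjustment over all 13941 tested genes, 2 of 10 members passed an adjusted p of 0.05, both lower. Over all tested genes 18.8% were called, 10.4% lower and 8.41% higher, so the share of members called was near that of genes in general. The groups did not overlap for 6 of the 10 members, against 46.4% of all tested genes. OFBI was the lower group in 5 of these members and the higher in 1, against 29.9% and 16.4% of all genes. The median log2 fold change of the members was -0.46, against -0.20 over all tested genes, and 7 members had a negative value. Without OFBI replicate 3 the test called 4 members, all lower (Per2, Per3, Cry2 and Nr1d1), against 24.7% of all genes called and 13.8% called lower. Without any 1 of the Naive libraries edgeR called none of the members, with 2 at an unadjusted p below 0.05 each time, while DESeq2 and limma-voom each called Nr1d1 and Per3 in all of those cases. In these fits edgeR called 106, 0 and 104 genes of all kinds, or 0.876%, 0.0% and 0.859% of those tested, without Naive replicate 1, 2 or 3. The case with none had 2441 genes at an unadjusted p below 0.05. The share called by DESeq2 was 15.3%, 12.3% and 13.6% in the same order, and that by limma-voom 17.3%, 12.9% and 15.7%. Where single members below are given under other fits, the share of all genes called was 20.8% with library size as the only scaling, 26.4% in DESeq2, 22.9% with counts divided by 4, 5.69% with a replicate block and 20.6% without OFBI replicate 2.

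**Figure D1:**
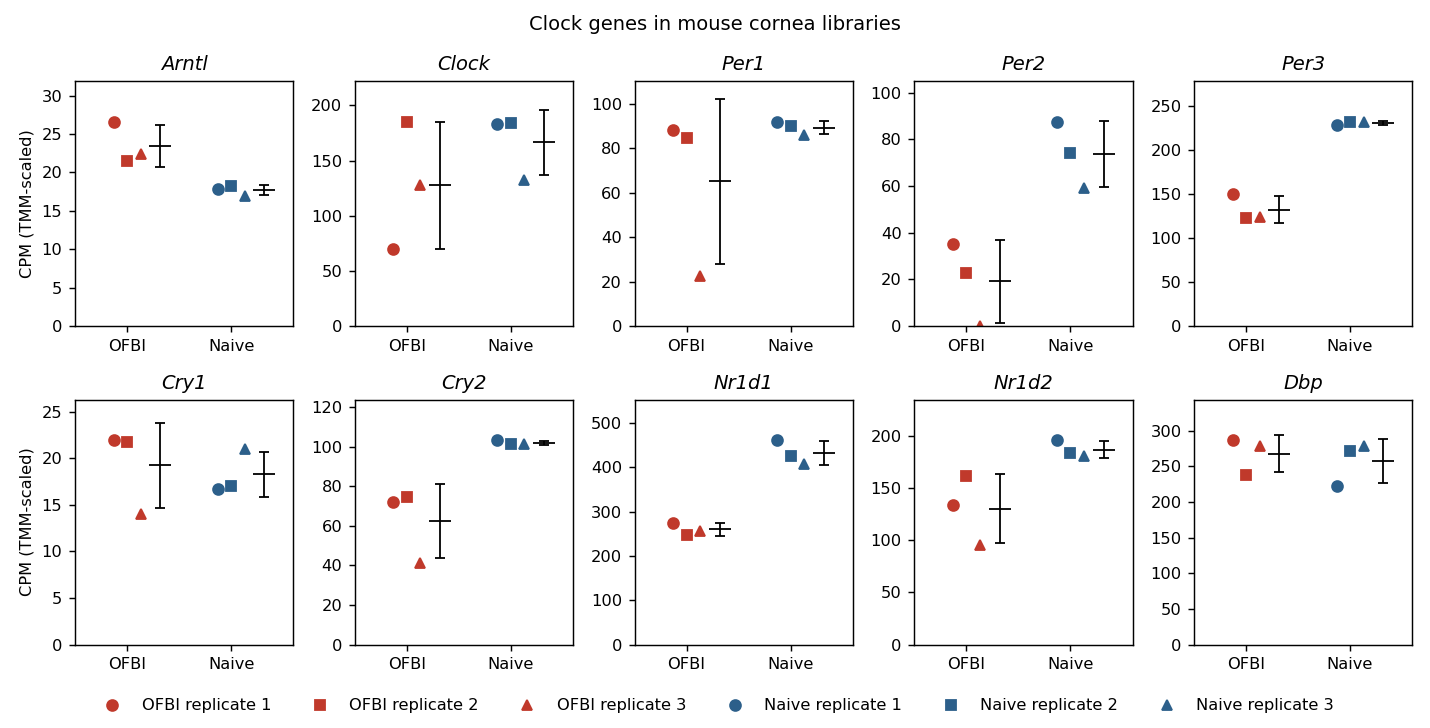
Level of each of the 10 clock genes in CPM (TMM-scaled, linear axis from 0) in OFBI and Naive libraries, with a symbol per replicate, where the bar beside each group is the mean ± SD (n = 3). The OFBI points of Nr1d1 and Per3 lie together below all Naive points, those of Dbp overlap the Naive points, and OFBI replicate 3 is the low point for Per1, Per2 and Cry2.

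Nr1d1 (chromosome 11, 98767932 to 98775333, minus strand, GRCm38) encodes REV-ERB alpha, the repressor of Arntl. It had 275, 247 and 257 CPM in OFBI replicates 1, 2 and 3, against 461, 426 and 408 CPM in Naive replicates 1, 2 and 3. The 3 OFBI libraries were close to each other and all lay below the lowest Naive library. Its log2 fold change was -0.73 (SE 0.12, 95% interval -1.02 to -0.45, adjusted p = 0.0147 in edgeR), or 0.602 times the Naive level. Of the exon bases of Nr1d1, 263 (8.55%) are shared with Thra, a thyroid hormone receptor gene on the opposite strand. The labels name a stranded library kit, but not whether counting used the strand, and without strand those reads cannot be told apart. Thra itself had 206, 123 and 155 CPM in OFBI and 152, 152 and 155 CPM in Naive libraries, with a log2 fold change of 0.08 (SE 0.20, adjusted p = 0.827 in edgeR).

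Per3 (chromosome 4, 151003652 to 151044665, minus strand) is the period gene that is least needed for the rhythm itself. It had 149, 123 and 123 CPM in OFBI libraries, against 228, 231 and 232 CPM in Naive libraries. The groups did not overlap, and the Naive pools were almost equal. Its log2 fold change was -0.80 (SE 0.14, 95% interval -1.12 to -0.48, adjusted p = 0.0157 in edgeR), a level 0.574 times that of Naive corneas. The 250 bases before the start of the 2 genes that were called lower are shown here because the clock acts on such sites, with matches to the motifs searched in capitals (RefSeq, GRCm38.p6, both on the minus strand, 5′ to 3′ along the gene). The Nr1d1 window is chr11:98775378-98775627 and the Per3 window chr4:151044666-151044915.
Nr1d1: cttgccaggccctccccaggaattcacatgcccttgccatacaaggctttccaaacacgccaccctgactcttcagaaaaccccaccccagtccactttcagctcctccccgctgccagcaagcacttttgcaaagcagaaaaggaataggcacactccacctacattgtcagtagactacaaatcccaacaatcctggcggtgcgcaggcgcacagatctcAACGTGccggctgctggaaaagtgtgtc
Per3: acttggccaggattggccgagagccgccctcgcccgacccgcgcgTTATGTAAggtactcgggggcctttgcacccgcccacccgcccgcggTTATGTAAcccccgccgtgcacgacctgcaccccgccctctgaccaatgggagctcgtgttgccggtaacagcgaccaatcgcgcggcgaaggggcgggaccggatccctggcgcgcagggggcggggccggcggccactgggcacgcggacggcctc

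The motifs were searched on both strands in these windows and in all 32851 windows of the same length. They were the E-box CACGTG, the E-box variant CACGTT, the cAMP response element TGACGTCA, the D-box TTANNTAA and the RORE by its consensus. They were found in 6.02%, 3.85%, 1.55%, 5.43% and 0.332% of all windows, in that order. The Nr1d1 window held the E-box variant, on its reverse strand, starting 28 bases before the start. The Per3 window held the D-box letters at 205 and at 158 bases before the start. D-boxes are bound by DBP, TEF, HLF and NFIL3. Of the other members with a window, Per1 held an E-box, Cry1 an E-box and the variant, and Cry2 the variant, while the windows of Arntl, Clock, Nr1d2 and Dbp held none of these letters. Windows were found for 9 of the 10 members, all but Per2. A match is a description of the letters only, and sites farther away were not searched.

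Nr1d2 encodes REV-ERB beta, a repressor that shares its role with NR1D1. Nr1d2 had 134, 162 and 95.4 CPM in OFBI libraries, against 196, 184 and 181 CPM in Naive libraries. All OFBI values lay below the Naive values, but the OFBI libraries differed more among themselves. A log2 fold change of -0.51 (SE 0.20, 95% interval -0.98 to -0.04) did not pass (adjusted p = 0.128 in edgeR). It was -0.73 and passed without OFBI replicate 2 (adjusted p = 0.0484 in edgeR), and was -0.16 with a GC and length trend removed. Over the 29 alternatives its adjusted p ran from 0.000781 to 0.571.

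Dbp (chromosome 7, 45705088 to 45710203) encodes a transcription factor that carries the clock's signal to D-box genes, and is among the strongest oscillators of mouse tissues. It had 286, 238 and 279 CPM in OFBI libraries, against 222, 272 and 279 CPM in Naive libraries. The groups overlapped. Dbp's log2 fold change was 0.05 (SE 0.15, 95% interval -0.30 to 0.41, adjusted p = 0.836 in edgeR), an interval that does not reach the values of Nr1d1 and Per3. This value moved more than that of any other member when a trend with GC and length was removed, and GC and length were not taken apart. The longest Dbp transcript has 61.6% GC, the highest of the 10, where the median tested gene has 50%, and with 1837 bases it is also the shortest of the 10. Once a trend with GC and length was taken out of every library, Dbp was at -0.75 on the log2 scale (adjusted p = 0.0217 in edgeR, against 0.0217 to 0.987 over the 29 alternatives), and those of Nr1d1 and Per3 were -1.09 and -0.99. In that fit 4 of 10 members were called, all lower (Per3, Cry2, Nr1d1 and Dbp), against 9.5% of all genes called lower. Dbp also shares 539 exon bases (18.0%) with Sphk2, a sphingosine kinase gene on the opposite strand. Sphk2 had 391, 346 and 233 CPM in OFBI and 166, 148 and 146 CPM in Naive libraries, a log2 fold change of 1.08 (SE 0.21, adjusted p = 0.0198 in edgeR). The part of Sphk2 reads in the Dbp counts was not tested.

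Per1 and Per2 encode the period proteins on which the negative limb of the clock rests. Per2 had 34.9, 22.7 and 0 CPM in OFBI libraries, against 87.4, 74.3 and 59.1 CPM in Naive libraries. All OFBI libraries lay below all Naive libraries, with OFBI replicate 3 at 0. That library would have held 78.7 estimated counts of Per2 at the mean Naive level, and a count of 0 allows up to 12, taken as 3 fragments. Per2's log2 fold change was -1.81 (SE 0.75, 95% interval -3.58 to -0.04, adjusted p = 0.144 in edgeR). Without OFBI replicate 3 it was -1.36 and passed (adjusted p = 0.0156 in edgeR), as it did with counts divided by 4 (adjusted p = 0.0207 in edgeR). Over the 29 alternatives its adjusted p ran from 6.77e-05 to 0.405. In Per1, a gene that glucocorticoids also induce, OFBI replicate 3 again stood apart. Per1 had 88.1, 84.8 and 22.4 CPM in OFBI libraries, against 91.9, 90.1 and 86.1 CPM in Naive libraries. OFBI replicates 1 and 2 were near the Naive values, and replicate 3 held 24 counts where the Naive level would give 95.5. Per1 had a fitted log2 fold change of -0.42 (SE 0.42, 95% interval -1.41 to 0.58, adjusted p = 0.542 in edgeR), which was -0.06 without OFBI replicate 3 and -1.05, still not called, after removal of the GC and length trend.

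The cryptochromes Cry1 and Cry2 are the main repressors of CLOCK and ARNTL. Cry2 had 72.3, 74.6 and 41.2 CPM in OFBI libraries, against 103, 101 and 101 CPM in Naive libraries. The groups did not overlap, but the log2 fold change of -0.68 (SE 0.23, 95% interval -1.23 to -0.13) did not pass (adjusted p = 0.0859 in edgeR). Without OFBI replicate 3 it was -0.48 and passed (adjusted p = 0.0335 in edgeR). In DESeq2, under library size scaling alone and after removal of the GC and length trend it passed as well, and its adjusted p ran from 0.000201 to 0.282 over the 29 alternatives. Cry1, which peaks later than the other targets, had 21.9, 21.8 and 14.0 CPM in OFBI libraries, against 16.8, 17.1 and 21.0 CPM in Naive libraries. These ranges overlapped, with a log2 fold change of 0.10 (SE 0.30, 95% interval -0.61 to 0.81, adjusted p = 0.854 in edgeR), whose sign changed when only library size was used for scaling.

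Of the activators, Arntl (chromosome 7, 113207465 to 113314126) had 26.6, 21.4 and 22.4 CPM in OFBI libraries, against 17.9, 18.2 and 17.0 CPM in Naive libraries. All OFBI values lay above all Naive values, but they rested on 86, 67 and 24 estimated counts. A log2 fold change of 0.41 (SE 0.25, 95% interval -0.18 to 1.01) did not pass (adjusted p = 0.307 in edgeR). Arntl passed in 2 of the 29 alternatives, both in DESeq2 without OFBI replicate 2 or 3, and its adjusted p ran from 0.0326 to 0.657. Clock, the partner of ARNTL, had 69.6, 185 and 128 CPM in OFBI libraries, against 183, 184 and 132 CPM in Naive libraries. It was the most uneven member within the OFBI group after Per1 and Per2 once divided by its mean, and the groups overlapped (log2 fold change -0.38, SE 0.34, 95% interval -1.19 to 0.43, adjusted p = 0.487 in edgeR). Npas2, a paralog of Clock, had 15.8, 15.7 and 26.2 CPM in OFBI and 18.1, 15.7 and 14.4 CPM in Naive libraries, and was not called (log2 fold change 0.23, SE 0.33, adjusted p = 0.685 in edgeR).

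**Figure D2:**
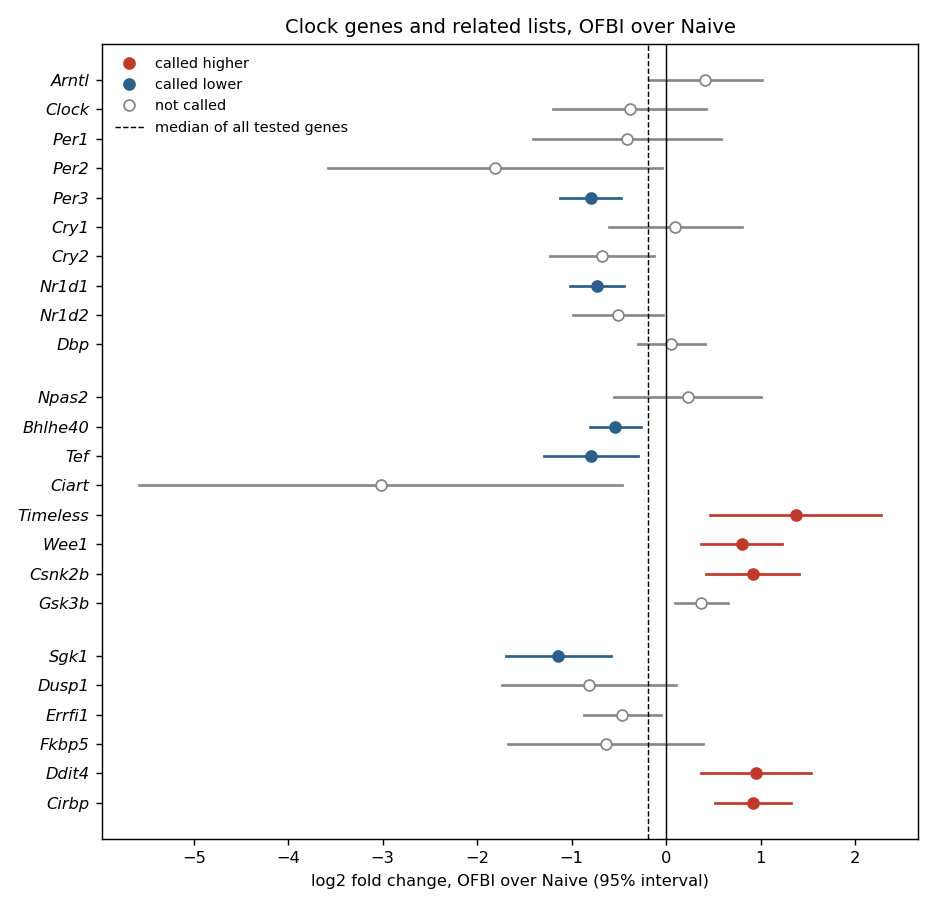
Fitted log2 fold change of OFBI over Naive (points) with 95% intervals (lines) for the 10 clock genes, 8 other clock genes and 6 genes of the glucocorticoid and cold-inducible lists, where filled points passed the edgeR test and the dashed line is the median of all tested genes at -0.20. Nr1d1 and Per3 are the filled members, and the interval of Dbp spans 0.

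Ratios between clock genes inside a library do not depend on the scaling factors between libraries. They do depend on depth through the prior, a fixed number of counts added to each gene. The prior weighs more where counts are low, as for Arntl in OFBI libraries. Per library, the log2 ratio of Arntl to Nr1d1 counts was -3.31, -3.45 and -3.32 in OFBI libraries and -4.68, -4.54 and -4.58 in Naive libraries. The groups stood apart by 1.24 on the log2 scale, with an SD of 0.08 in OFBI and 0.07 in Naive libraries. The OFBI values of Arntl rested on 86, 67 and 24 estimated counts, so the SD between libraries can be smaller than the counting error. The log2 ratio of Arntl to Dbp was -3.37, -3.40 and -3.43 in OFBI and -3.63, -3.89 and -4.03 in Naive libraries. This difference was smaller, 0.45, with no overlap. It was 1.39 with the GC and length trend removed. These differences also depended on the prior of 4 counts added to each gene. With a prior of 1 or 16 counts, that of Arntl to Dbp was 0.37 or 0.71 and that of Arntl to Nr1d1 was 1.16 or 1.49.

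A phase contrast was the mean log2 count of Arntl, Clock and Npas2 minus that of Per1, Per2, Per3, Nr1d1, Nr1d2 and Dbp. Cry1 and Cry2 were left out of it. The phase contrast was -2.03, -1.49 and -0.52 in OFBI libraries and -2.22, -2.25 and -2.41 in Naive libraries. In this contrast OFBI replicate 1 was thus near the Naive libraries and replicate 3 far from them. In OFBI replicate 3, however, Per2 had 0 counts and entered at the prior of 4 counts alone, and Per1 had 24 counts. The group difference was 0.95. It was 1.29 without OFBI replicate 1, 0.54 without OFBI replicate 3 and 1.36 with the GC and length trend removed. Clock was lowest in OFBI replicate 1, at 69.6 CPM, and without Clock and Npas2 the difference was 1.33. Nr1d1 and Dbp did not move alike, nor did Per3 and Dbp, and both pairs were chosen after the values were seen. Dbp shares exon bases with Sphk2, whose part in the Dbp counts was not tested. The log2 ratio of Nr1d1 to Dbp was -0.06, 0.05 and -0.11 in OFBI and 1.06, 0.65 and 0.55 in Naive libraries. That of Per3 to Dbp was -0.93, -0.95 and -1.15 in OFBI and 0.04, -0.23 and -0.27 in Naive libraries. With the GC and length trend removed, the group differences of these 2 ratios shrank to -0.33 and -0.24, compared with -0.79 and -0.86 without that step. No test was run on these ratios, and the time of collection was not tested.

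**Figure D3:**
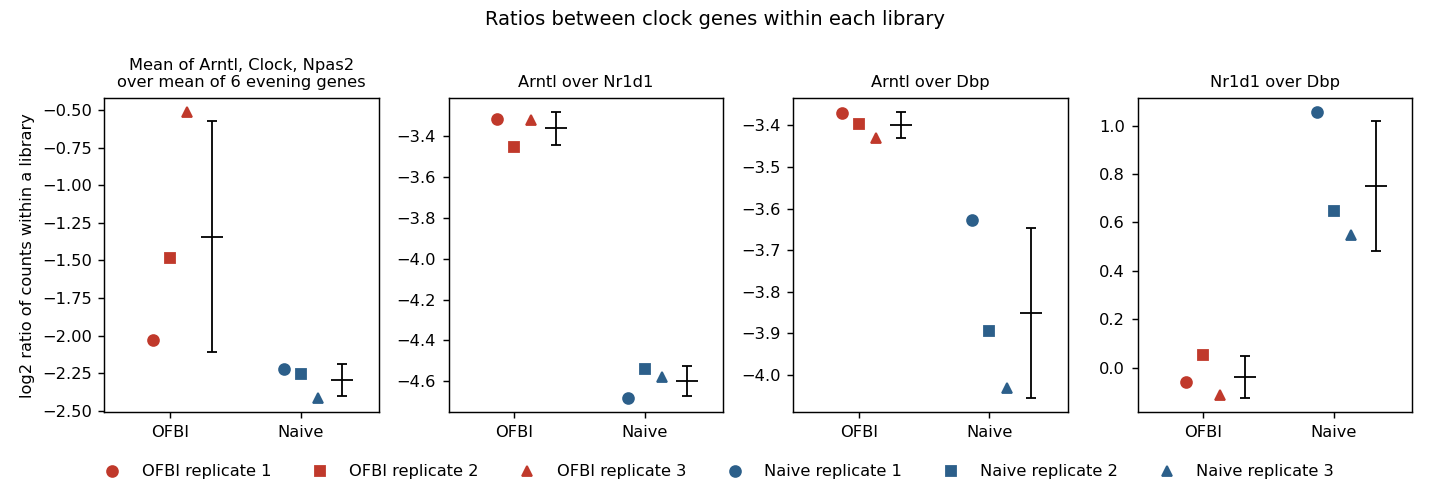
Log2 ratios of estimated counts (prior of 4 counts) between clock genes within each library, OFBI left and Naive right of each panel, with mean ± SD (n = 3) beside the points. The 6 genes labelled evening are Per1, Per2, Per3, Nr1d1, Nr1d2 and Dbp, which do not share a single peak time. OFBI and Naive points do not overlap in any panel, and OFBI replicate 3, with a Per2 count of 0, is the high point of the first panel at -0.52.

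The order of the members by level per transcript length was similar in the 2 groups except at the top and bottom. In TPM (levels per transcript length that sum to the same total in every library, with the longest transcript as length) Dbp led in OFBI libraries with 397 ± 39.7 (SD, n = 3), followed by Nr1d1 with 261 ± 21.9. In Naive libraries Nr1d1 led with 532 ± 32.3 TPM (SD, n = 3), followed by Dbp with 471 ± 57.6, and these Naive ranges overlapped. In OFBI libraries the next were Nr1d2 and Per3 with means of 76.8 and 60.1 TPM, whose difference was smaller than the SD of Nr1d2, 22.3 TPM (n = 3). Nr1d2 and Per3 had 135 ± 5.55 and 129 ± 1.34 TPM (SD, n = 3) in Naive libraries. Cry2, Per1 and Clock came next in both groups, and their OFBI ranges overlapped. Per2 was the lowest member in OFBI libraries with 9.25 ± 8.56 TPM (SD, n = 3). Arntl was the lowest in Naive libraries with 14.9 ± 0.523 TPM (SD, n = 3).

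Among 28 other clock genes, all tested, 3 were called higher and 3 lower, a share of 21.4% beside the 18.8% of all tested genes, with a median log2 fold change of -0.24. Bhlhe40, a repressor that competes for E-boxes, had 344, 304 and 328 CPM in OFBI libraries, against 468, 476 and 475 CPM in Naive libraries. Bhlhe40 was at -0.54 on the log2 scale (SE 0.11, adjusted p = 0.0246 in edgeR), and -0.42 after removal of the GC and length trend (adjusted p = 0.0562 in edgeR). Tef, a D-box factor related to Dbp, had 147, 237 and 238 CPM in OFBI libraries, against 318, 383 and 377 CPM in Naive libraries. The lowest Naive value of Tef lay above all OFBI values, with a log2 fold change of -0.80 (SE 0.21, adjusted p = 0.0417 in edgeR). Fbxl21, a ubiquitin ligase subunit for cryptochromes, was at 0 in all OFBI libraries and at a mean of 1.19 CPM in Naive libraries. That is under the 1.62 CPM that 12 counts over the OFBI group would give, so a difference in Fbxl21 was beyond what this depth can show, although it is 1 of the 3 genes counted as called lower (adjusted p = 0.0373 in edgeR).

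The 3 genes called higher were Timeless, Wee1 and Csnk2b. Timeless, which in mammals acts mainly at replication forks, had 21.9, 24.3 and 52.4 CPM in OFBI libraries, against 12.5, 12.6 and 12.1 CPM in Naive libraries (log2 fold change 1.37, SE 0.39, adjusted p = 0.0490 in edgeR). OFBI replicate 3 was the highest, and the call was lost in 7 of the 11 alternative fits that kept all libraries. Wee1, a clock-controlled kinase that restrains entry into mitosis, had 84.1, 66.6 and 81.4 CPM in OFBI libraries, against 40.1, 44.3 and 48.9 CPM in Naive libraries (log2 fold change 0.80, SE 0.18, adjusted p = 0.0282 in edgeR). Csnk2b, a subunit of casein kinase 2, had 135, 136 and 209.5 CPM in OFBI libraries, against 89.4, 77.6 and 86.1 CPM in Naive libraries (log2 fold change 0.92, SE 0.21, adjusted p = 0.0286 in edgeR), and shares 3.00% of its exon bases with Gpank1 on the opposite strand. All OFBI values of these 3 genes lay above all Naive values.

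Gsk3b and Ciart had the smallest p of those that did not pass. Ciart, a repressor of CLOCK and ARNTL, had 3.40, 0 and 0 CPM in OFBI libraries, against 13.4, 8.93 and 10.7 CPM in Naive libraries (log2 fold change -3.02, SE 1.08, adjusted p = 0.0992 in edgeR). Its OFBI values rested on 11 estimated counts in all. Gsk3b, a kinase that phosphorylates clock proteins, was at 0.37 on the log2 scale (SE 0.12, adjusted p = 0.0725 in edgeR).

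Per1 also answers to glucocorticoids, and body temperature sets peripheral clocks, so 8 glucocorticoid-induced and 2 cold-inducible genes were read beside it. Of these 10, 2 were called higher and 1 lower, or 30% beside the 18.8% of all tested genes. Sgk1, a kinase gene induced by glucocorticoids, had 173, 100.2 and 103 CPM in OFBI libraries, against 255, 278 and 299.8 CPM in Naive libraries (log2 fold change -1.14, SE 0.23, adjusted p = 0.0235 in edgeR). Ddit4, an inhibitor of mTOR, had 35.6, 44.5 and 39.3 CPM in OFBI libraries, against 16.5, 20.8 and 24.5 CPM in Naive libraries (log2 fold change 0.95, SE 0.25, adjusted p = 0.0403 in edgeR), but 0.55 after removal of the GC and length trend (adjusted p = 0.194 in edgeR). These 2 glucocorticoid targets lay on opposite sides of the Naive level. Of all 8 glucocorticoid-induced genes, 4 had every OFBI library below every Naive library (Sgk1, Fkbp5, Dusp1 and Errfi1) and 1 above (Ddit4). Over all tested genes these shares were 29.9% and 16.4%. The median log2 fold change of the 8 was -0.37, against -0.20 over all tested genes, and a glucocorticoid effect was not tested.

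Fkbp5, a standard marker of glucocorticoid action, had 39.0, 45.5 and 10.3 CPM in OFBI libraries, against 49.1, 50.0 and 54.7 CPM in Naive libraries, with replicate 3 low as for Per1 (log2 fold change -0.64, SE 0.44, adjusted p = 0.356 in edgeR). Dusp1 and Errfi1 did not pass either, at -0.82 (SE 0.39) and -0.46 (SE 0.17) on the log2 scale. Cirbp, an RNA-binding protein induced by cool temperature, had 167, 242 and 196 CPM in OFBI libraries, against 113, 105 and 102 CPM in Naive libraries (log2 fold change 0.91, SE 0.17, adjusted p = 0.0191 in edgeR). Rbm3, the other cold-inducible gene, overlapped between the groups (log2 fold change -0.07, SE 0.20, adjusted p = 0.846 in edgeR).

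The calls of Nr1d1 and Per3 were the steadiest among the members. Nr1d1 passed in all 11 alternatives that kept the 6 libraries, with log2 fold changes of -1.09 to -0.65, and Per3 in 10 of 11. The exception was the fit with replicate number as a block (adjusted p = 0.0522 in edgeR for Per3). Both remained lower in each of the 18 fits that left out 1 library, of which 15 called Nr1d1 and 14 called Per3.

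**Figure D4:**
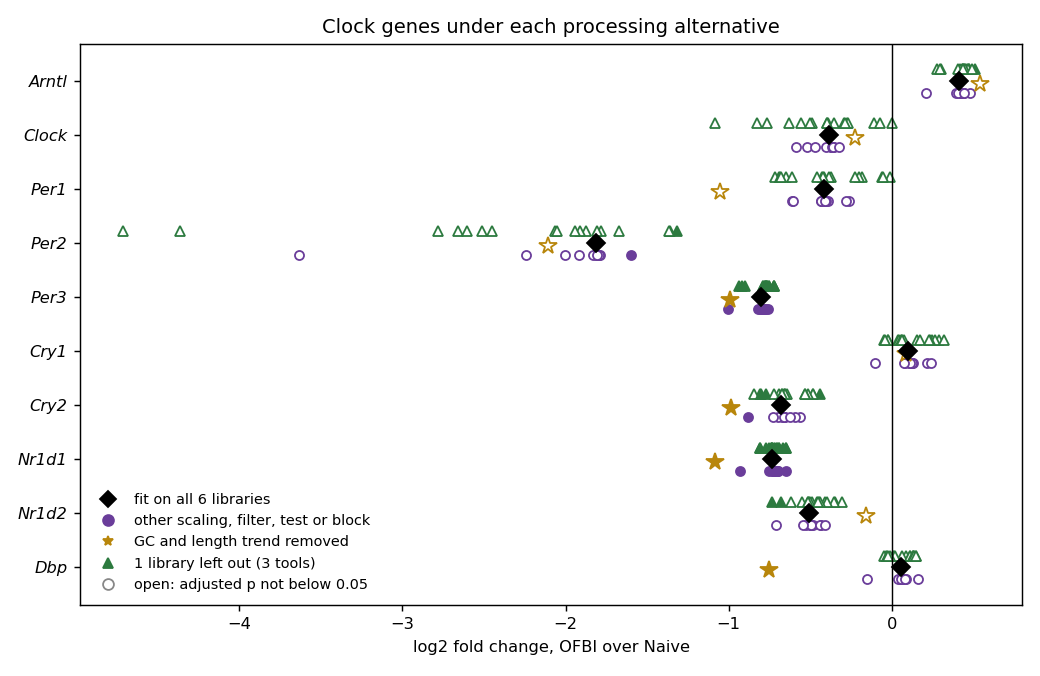
Log2 fold change of OFBI over Naive for each clock gene in the fit on all 6 libraries (diamonds), under other scalings, filters, tests or a block (circles), with the GC and length trend removed (stars) and with 1 library left out in edgeR, DESeq2 or limma-voom (triangles), where filled symbols other than diamonds passed the threshold. All values of Nr1d1 and Per3 lie between -0.65 and -1.09, Dbp shifts to -0.75 at its star, and Per2 spreads most, down to -4.71.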

How the data were processed

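For each library the authors deposited a table of estimated counts per gene, in whole numbers without depth scaling. The values themselves gave the unit. Among values between 1 and 40, 39.4% to 50.4% were multiples of 4, as in counts computed from transcript coverage, so about 4 counts may stand for 1 fragment. HISAT2, StringTie, DESeq2, FastQC and the build GRCm38 appear in the submitters' processing notes. Versions, the annotation and the strand setting were not stated in the sources used.

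Rows that shared a symbol were summed, which left 22007 symbols. edgeR 4.0.16 in R 4.3.3 was run on all genes (filterByExpr, TMM scaling, quasi-likelihood test with group as the only term, two-sided, Benjamini-Hochberg adjustment, threshold 0.05), and the procedure was tested on simulated data. The SE was the log2 fold change divided by the square root of F, and intervals are 95% intervals from it. CPM are TMM-scaled. TPM divide the counts by the length of the longest GENCODE M21 transcript. Within-library log2 ratios used a prior of 4 counts. Lengths, GC content and positions are those of GENCODE M21 on GRCm38, which may differ from the authors' annotation.

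DESeq2 1.42.0, limma-voom in limma 3.58.1, other scalings and filters, a replicate block, counts divided by 4, thinned Naive libraries, removal of a GC and length trend (loess on each library's log ratio) and leaving out each library were alternatives. DESeq2 and limma-voom with a library left out, and the ratios of Nr1d1 and Per3 to Dbp, were added after seeing the data. The members and all gene lists were chosen with earlier results of these data known. Named genes were the 10 members, the called genes of the other lists with the 3 uncalled genes of smallest p, 5 corneal markers and Alb, of which 1 is not reported here. Other genes are named where their exons overlap a member's or where the text says so. Libraries of a group differed by more than sampling noise and were counted as separate samples. Floors and counts cover counting error only.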

Additional observations from a re-analysis of the deposited data

How the results depend on the processing

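Other scalings left Nr1d1 and Per3 called, but library size alone put the median over all genes at -0.40 on the log2 scale, where TMM gave -0.20, and Cry1 and Dbp turned to -0.10 and -0.15. Dbp also turned with the GC and length trend removed, to -0.75, where 4 members were called. The cause was not tested. Without a filter, and with the Naive libraries thinned to the mean OFBI depth, 3 of the other clock genes were called instead of 6, and thinning left 1569 genes called in all, where fewer genes were tested. The replicate block called 793 genes, 1 member, 1 other clock gene and 1 gene of the glucocorticoid and cold-inducible lists. Same-numbered libraries did not deviate together (correlations of -0.03, -0.04 and 0.01). With OFBI libraries this shallow, that check cannot show whether they share more than a number. With 1 library left out, over edgeR, DESeq2 and limma-voom, the counts ran from 0 to 5167 for all genes, 0 to 5 for members, 0 to 13 for the other clock genes and 0 to 4 for the last lists. Without 1 library Cry1 ranged from -0.050 to 0.32, Dbp from -0.045 to 0.15 and Clock from -1.09 to 0.0037. The phase contrast ranged from 0.54 to 1.29 without 1 library and kept its sign in each alternative run. In the shallowest OFBI library, 12 counts correspond to 10.2 CPM before TMM scaling, which limits statements on Arntl, Cry1, Per2 and Ciart.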
